A study of Mus musculus with 10 samples.

Results

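The cells described here are mouse pancreatic ductal adenocarcinoma (PDAC) tumor cells, and the genes are the nuclear-encoded genes of oxidative phosphorylation. They were chosen by name: every gene whose symbol begins with Nduf, Uqcr or Atp5, the 4 genes Sdha to Sdhd, and every Cox gene numbered 4 to 8. The rule took 98 of the 25450 gene names in the table. One of the 98, a pseudogene, had no value, 88 averaged 1 or more in deposited signal across the libraries and were tested, and 9 stayed below that level. The name rule also takes in 8 assembly factors of complex I (Ndufaf genes) and 3 pseudogenes (Cox7c-ps1, Ndufs5-ps and Ndufs5-ps-2), which are kept apart from the subunits below.

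Oxidative phosphorylation makes ATP in the inner mitochondrial membrane. Complex I takes electrons from NADH and complex II takes them from succinate, both pass them to ubiquinone, complex III hands them to cytochrome c and complex IV gives them to oxygen. Complexes I, III and IV pump protons in doing so, and complex V, the ATP synthase, uses the returning protons to make ATP. Most subunits are encoded in the nucleus, and a small set of core subunits of complexes I, III, IV and V is encoded in mitochondrial DNA. Tumor cells can draw on both glycolysis and this pathway, and interferon gamma (IFNγ), a cytokine of activated T cells and natural killer cells, is known to reshape metabolism in immune cells.

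The RNA came from 10 libraries in 3 groups. In 4 libraries cells without IFNγ were taken over all surface levels of PD-L1, a checkpoint ligand that restrains T cells through PD-1 (untreated all). In 3 libraries cells given recombinant mouse IFNγ were taken over all levels (treated all), and in 3 more, cells given IFNγ were taken for high PD-L1 (PD-L1 high). Cells were harvested 20 h into stimulation and sorted by flow cytometry. The strain is given as C57BL/6 for the 7 libraries over all PD-L1 levels, and as C57BL/7, C57BL/8 and C57BL/9 for the 3 PD-L1 high libraries, so strain label and PD-L1 selection cannot be told apart. No genotype, tumor allele, cell line name or animal age is given, treated all can itself contain cells with high PD-L1, and no group with low PD-L1 is among these libraries.

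What was deposited is a normalized signal for each gene, with library totals of 698396 to 715500; its unit and the read depth are unknown. For that reason levels are compared between libraries for the same gene and not between genes. Correlations between libraries of 1 group were 0.987 to 0.992, and those across groups 0.941 to 0.987. Nothing in the labels shows that replicate libraries are separate cultures, and p-values therefore reflect just the spread among these samples, possibly a technical one. The mean of untreated libraries 3 and 4 lay closer to that of libraries 1 and 2 (median absolute difference 0.00218 on the log2 scale) than in the other ways of pairing them (0.0524 and 0.0658). P-values against the untreated group are therefore too small. All 10 libraries share 1 estimate of the spread, so p-values of PD-L1 high against treated all can be too small as well. Of 10 epithelial and pancreatic duct markers, 9 had a mean of at least 1, and their summed signal was 4450 to 4610 in untreated all, 5390 to 5430 in treated all and 4940 to 5000 in PD-L1 high. Of 9 fibroblast markers 5 did, with sums of 172 to 188, 128 to 139 and 142 to 151 in the same order. Of 8 leukocyte markers 1 did and 3 were at 0 everywhere, with sums of 6.84 to 8.51, 9.7 to 10.6 and 12.3 to 13.8. Ptprc, which encodes the pan-leukocyte protein CD45, stayed at or below 0.159. The 1 leukocyte marker that was tested passed the test described below as higher in every comparison. Its log2 fold change was 0.38 with IFNγ, 0.32 with PD-L1 selection and 0.70 in PD-L1 high against untreated all. Acinar marker sums (1 of 5 with a mean of at least 1, 2 at 0) were 11.4 to 13.4, 8.54 to 9.4 and 9.09 to 11.5, and endothelial sums (0 of 4) stayed at or below 0.501. The sums do not speak for each marker. With IFNγ, 5 of 9 tested epithelial markers were called higher and 3 lower, and 1 and 3 of 5 fibroblast markers. In PD-L1 high against untreated all these were 4 and 3, and 2 and 3. Of all genes tested, 23.1% and 38.8% were called in the first comparison and 19.1% and 41.0% in the second. The part of these marker shifts in the results below was not tested, and in bulk RNA fewer cells of a type and less RNA per cell cannot be told apart.

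Promoter windows from RefSeq (build GRCm38.p6), 250 bases before to 50 bases after the start of each gene, were found for 76 of the members, 73 of them tested. Shown here are the 250 bases before the start of 4 genes, in the direction of transcription: Ndufs4, which had the largest change with IFNγ among called members, Cox7b, which had the largest with PD-L1 selection, and Sdha and Sdhb, which encode the 2 catalytic subunits of complex II and moved in opposite directions. Capitals mark an exact match to the NRF1 motif, and all other bases are in lower case. The Ndufs4 window is chr13:114388095-114388344 on the minus strand, the Cox7b window chrX:106015450-106015699 on the plus strand, the Sdha window chr13:74350241-74350490 on the minus strand and the Sdhb window chr4:140961021-140961270 on the plus strand.
Ndufs4: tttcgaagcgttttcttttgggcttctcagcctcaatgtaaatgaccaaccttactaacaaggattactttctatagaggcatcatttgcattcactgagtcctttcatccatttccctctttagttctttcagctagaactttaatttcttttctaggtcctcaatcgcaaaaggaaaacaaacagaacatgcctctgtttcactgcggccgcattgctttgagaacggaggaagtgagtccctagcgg
Cox7b: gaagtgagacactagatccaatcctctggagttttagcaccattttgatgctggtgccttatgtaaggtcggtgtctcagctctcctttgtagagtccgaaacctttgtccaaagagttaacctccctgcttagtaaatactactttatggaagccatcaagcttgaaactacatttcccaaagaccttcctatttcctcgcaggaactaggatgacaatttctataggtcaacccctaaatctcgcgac
Sdha: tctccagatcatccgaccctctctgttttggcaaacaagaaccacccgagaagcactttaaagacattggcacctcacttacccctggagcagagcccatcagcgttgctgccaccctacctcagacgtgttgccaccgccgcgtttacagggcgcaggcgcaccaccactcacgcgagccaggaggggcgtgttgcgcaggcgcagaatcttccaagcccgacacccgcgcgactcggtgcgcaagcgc
Sdhb: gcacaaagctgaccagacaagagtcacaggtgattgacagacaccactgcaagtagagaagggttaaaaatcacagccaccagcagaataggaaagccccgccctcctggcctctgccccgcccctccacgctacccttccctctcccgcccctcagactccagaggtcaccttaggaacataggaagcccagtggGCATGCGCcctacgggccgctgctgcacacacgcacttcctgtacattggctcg

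Over the 250 bases, G and C made up 42.0% in Ndufs4 and 43.6% in Cox7b, ranks 2 and 3 from the lowest among the 73 tested members with a window, against 61.6% in Sdha and 59.2% in Sdhb. The median was 57.6% over the members and 60% over 9233 tested genes with a window. The whole 300-base windows were searched on both strands for motifs of respiratory and interferon regulators. The NRF1 motif GCATGCGC, bound by a regulator of respiratory genes, was in 12 of 73 members (16.4%), against 6.25% of tested genes and 3.05% of all 27025 windows. The YY1 motif AAGATGGC was in 11 (15.1%), against 5.66% and 3.19%. The ETS motif CCGGAAGT was in 5 (6.85%, against 9.91% and 4.31%), and the ISRE motif GAAANNGAA in 7 (9.59%, against 8.51% and 9.76%). None of these motifs contains another, and a match describes letters, not binding. Ndufs4 held a YY1 match 36 bases after its start, outside the stretch printed, and Sdhb the NRF1 match printed above, 54 bases before its start. No match to any of these was found in the windows of Cox7b and Sdha.

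With IFNγ, in treated all against untreated all, the oxidative phosphorylation genes split into risers and fallers with small changes in each direction. Among the 88 tested members, 24 rose (27.3%, against 23.1% of all 11487 genes tested) and 21 fell (23.9%, against 38.8%), with 43 short of the threshold (limma on log2(signal + 1), Benjamini-Hochberg adjusted p under 0.05). The median log2 fold change was 0.01 over the members and -0.08 over all genes, and the median size of change, whatever its sign, was 0.11 against 0.22. Only 3 members passed the test with a change of at least 1.25-fold, 3.41% against 33.3% of all genes: Ndufs4 rose, and the assembly factors Ndufaf2 and Ndufaf7 fell. The split depended on scaling. With median-ratio scaling 36 members rose and 6 fell, beside 3592 and 3384 of all 11487 genes tested. With upper-quartile scaling 26 rose and 15 fell, beside 2892 and 4128. Without untreated libraries 3 and 4, 15 rose and 14 fell, beside 2061 and 3404 of all genes. Of the calls, 14 of the 24 rises and 6 of the 21 falls were kept under all 19 alternative settings. Over all genes, median-ratio scaling also gave more rises (3592 in place of 2648) and fewer falls (3384 in place of 4458). Kept calls were not counted over all genes, so the gap between kept rises and kept falls cannot be read as particular to the members.

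**Figure D1:**
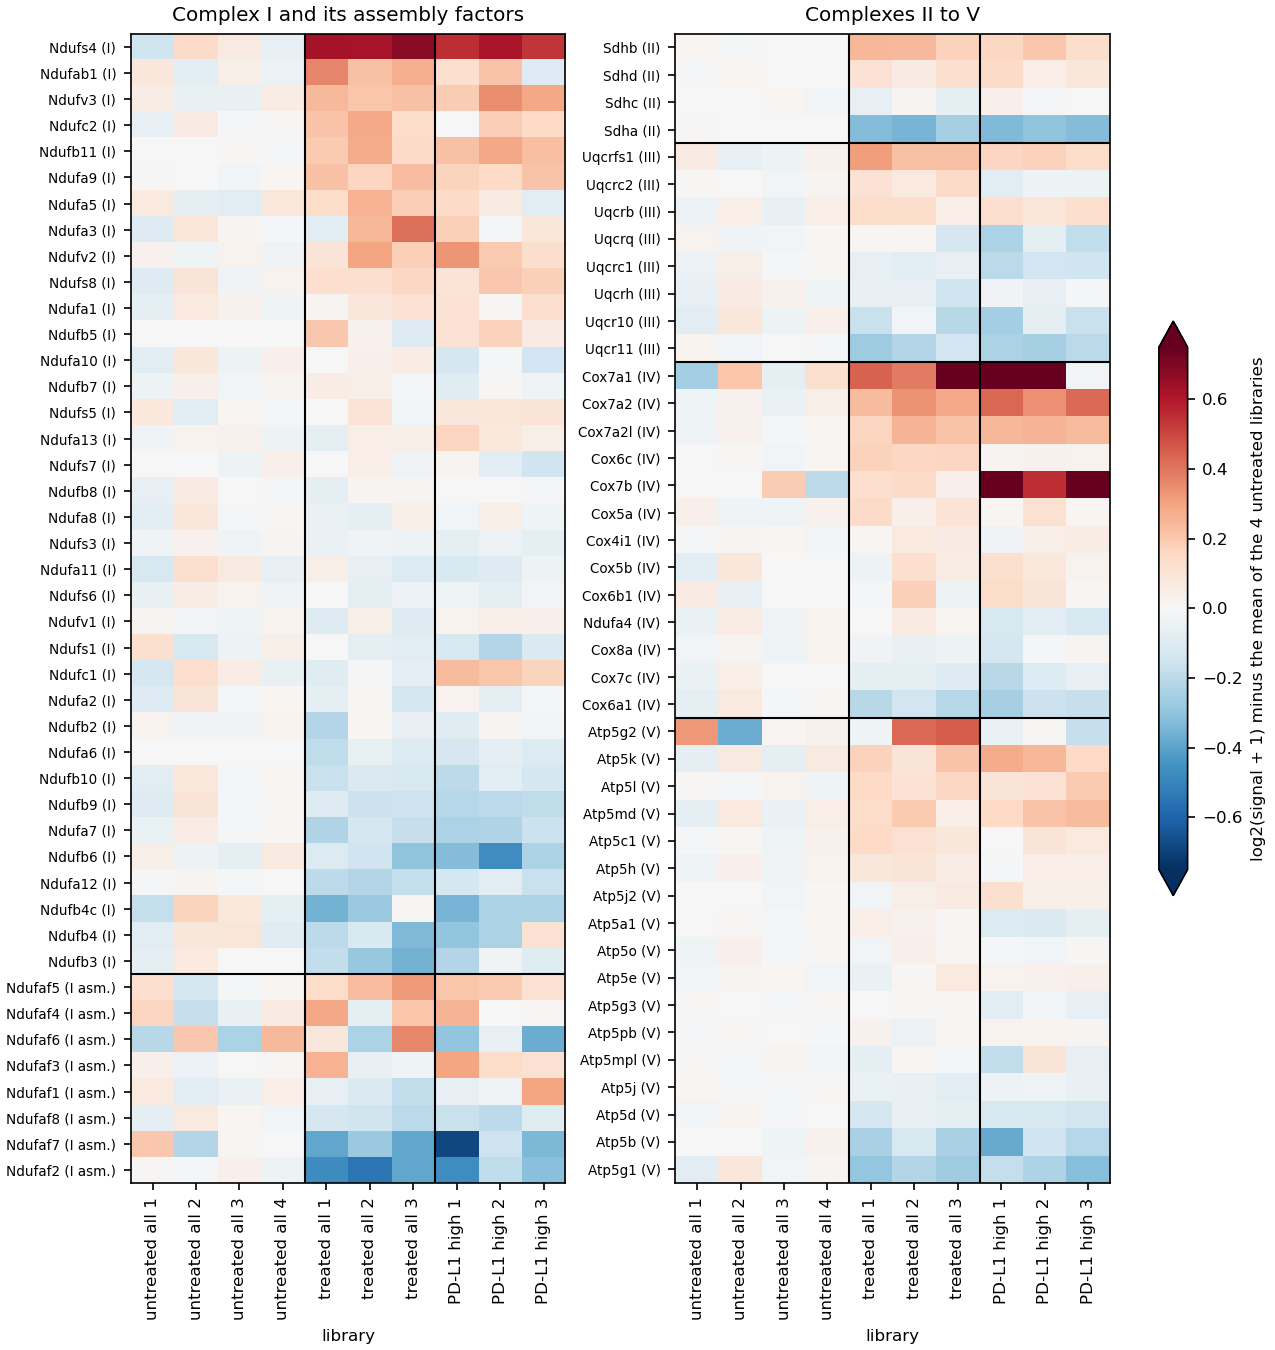
Heat map of the tested members other than the pseudogene Cox7c-ps1 and 1 gene not reported here, in rows sorted by complex, over the 10 libraries in columns, with colour for the log2(signal + 1) of a library minus the mean of the 4 untreated libraries, clipped at 0.75 in each direction. Most cells are pale, Ndufs4 is dark red in all 6 libraries given IFNγ, Cox7b in the 3 PD-L1 high libraries, and the low gene Cox7a1 in some libraries of both groups.

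The summed signal of the members, 2.57% to 2.74% of each library's total, was 18851 ± 324 in untreated all (SD, n = 4) and 18664 ± 277 in treated all (SD, n = 3). By complex the sum in treated all was 98.3% of untreated all for complex I, 99.6% for complex II, 95.7% for complex III, 101% for complex IV and 99.2% for complex V. The summed signal of the complex I assembly factors stood lower, at 159 ± 2.99 against 181 ± 2.96, or 88%. In this sum, where genes of high signal weigh most, the 3 treated libraries lay below all 4 untreated ones. In the mean log2 level relative to untreated all, where each gene weighs the same, the groups overlapped. Treated all had -0.0352, -0.153 and -0.0388, and untreated all 0.0416, -0.0468, -0.036 and 0.0412. Median log2 fold changes over the tested members were -0.03 for complex I (37 members), -0.03 for its assembly factors (8), 0.03 for complex II (4), -0.05 for complex III (8), 0.05 for complex IV (13) and 0.01 for complex V (17). Each complex held risers and fallers, and of all genes tested 23.1% rose and 38.8% fell.

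**Figure D2:**
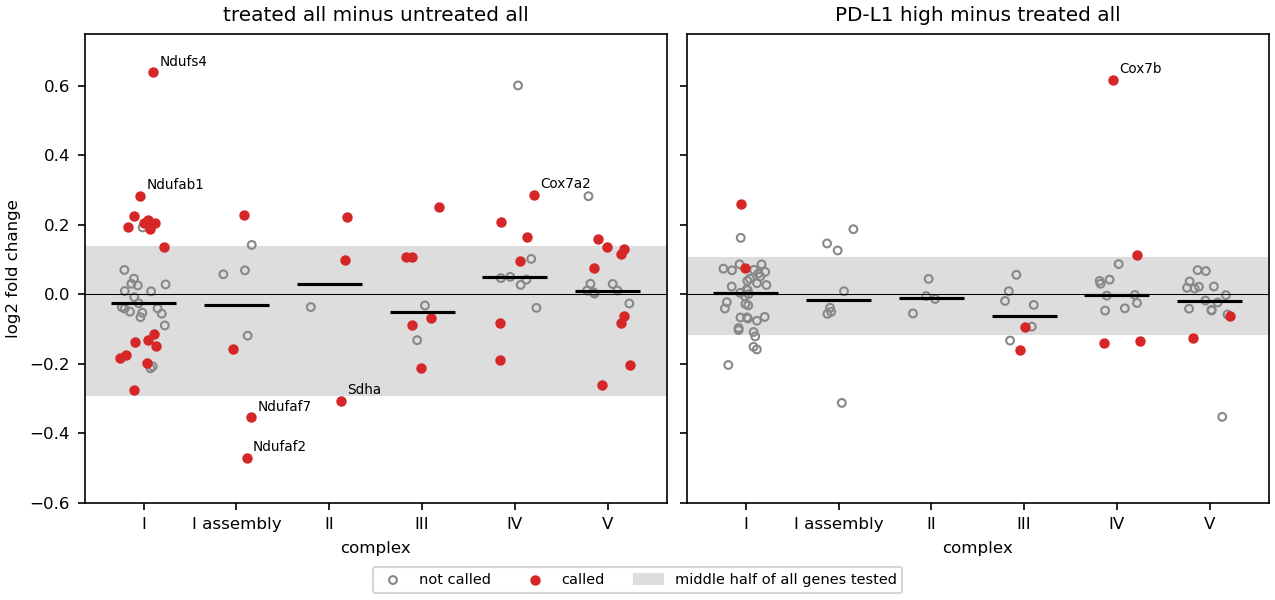
Log2 fold change of each tested member by complex, for treated all minus untreated all (left) and PD-L1 high minus treated all (right); filled red points passed the test, open points did not, black bars are the medians per complex, and the grey band runs from the 25th to the 75th percentile of all genes tested. The medians per complex lie between -0.06 and 0.05, and Ndufs4 and Cox7b stand above the other called members.

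Complex I had 9 risers and 8 fallers among 37 tested subunits, with 20 not called. Of all genes tested, 23.1% rose and 38.8% fell. Ndufs4 encodes an accessory subunit needed for a stable NADH-oxidizing arm, and its loss causes Leigh syndrome in people (gene on chromosome 13, 114287795 to 114388094, GRCm38.p6). Its signal was 31.2, 38.6, 36.5 and 33.2 in untreated all, 54, 53.9 and 56.1 in treated all, and 51.5, 53.8 and 50.9 in PD-L1 high. Every library given IFNγ lay above every untreated one. The log2 fold change with IFNγ was 0.64 ± 0.06 (SE; limma adjusted p = 5.4e-06), and it ranged from 0.59 to 0.72 over the 19 alternatives. PD-L1 high differed from treated all by -0.07 ± 0.07, which did not pass the test (adjusted p = 0.48).

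The next largest rises in complex I were in Ndufab1, the mitochondrial acyl carrier protein, which is also a subunit, and in Ndufv3, an accessory subunit of the NADH-oxidizing arm. Ndufab1 had a signal of 87.1, 77.2, 84.8 and 79.6 in untreated all and of 106, 95.6 and 99.3 in treated all (log2 fold change 0.28 ± 0.07, adjusted p = 0.0049). Ndufv3 had 93.2, 86.2, 86.2 and 93.1, then 106, 104 and 104 (0.22 ± 0.04, adjusted p = 0.00083). The groups did not overlap for either gene. On the log2 scale, Ndufa9, Ndufb11 and Ndufc2 rose by 0.20, 0.21 and 0.21.

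The largest falls in complex I were in 3 accessory subunits. Ndufb3 had a signal of 118, 130, 124 and 123 in untreated all and of 109, 101 and 96.5 in treated all (log2 fold change -0.28 ± 0.05, adjusted p = 0.00086). Ndufa12 had 181, 186, 183 and 184, then 160, 157 and 162 (-0.20 ± 0.02, adjusted p = 3.2e-05). Both pairs of groups were separate. Ndufb6 fell by 0.18 on the log2 scale (adjusted p = 0.021), but over the alternatives its adjusted p ran from 0.012 to 0.17 and it was lost without untreated library 1 or 4 or treated library 3 (adjusted p up to 0.1). Among core subunits, which carry the flavin and the iron-sulfur clusters, Ndufv2 rose by 0.19 and Ndufs8 by 0.14, and both calls were lost without untreated libraries 3 and 4. Ndufb4 and its near copy Ndufb4c both had values of -0.21 and did not pass the test, and reads may have been split between them.

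The 8 complex I assembly factors help to build the complex and do not stay in it. Ndufaf2, Ndufaf7 and Ndufaf8 fell, Ndufaf5 rose and 4 did not pass the test, where 38.8% of all genes fell and 23.1% rose. Ndufaf2 had a signal of 40, 39.5, 40.8 and 38.6 in untreated all, of 28.3, 26.9 and 30.1 in treated all and of 28.5, 34.7 and 31.7 in PD-L1 high. No library given IFNγ reached an untreated one (log2 fold change -0.47 ± 0.06, adjusted p = 5.3e-05). Ndufaf7, a methyltransferase, fell by 0.35 on the log2 scale (adjusted p = 0.026), but the call was lost in 5 of 10 fits that left out 1 library, each of untreated 1, 3 and 4 and treated 1 and 3, with an adjusted p of up to 0.073, and over all alternatives up to 0.11. Ndufaf8, which in human cells stabilizes NDUFAF5, fell by 0.16 (adjusted p = 0.0055, lost with median-ratio scaling), and Ndufaf5, in human cells a hydroxylase of NDUFS7, rose by 0.23 (adjusted p = 0.0093, lost without untreated libraries 3 and 4).

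Complex II, which is also the succinate dehydrogenase of the TCA cycle, has 4 subunits, all encoded in the nucleus. Sdha, the flavoprotein that oxidizes succinate (chromosome 13, 74322255 to 74350240), had a signal of 101, 99.6, 100.1 and 99.6 in untreated all, of 79.7, 78.4 and 84.1 in treated all and of 79.3, 81 and 79.4 in PD-L1 high. Sdhb, the iron-sulfur subunit that accepts the electrons (chromosome 4, 140961271 to 140979198), had 84.6, 83.4, 83.8 and 83.8, then 99.9, 99.3 and 94.9, then 93.7, 97.1 and 92.1. All 6 libraries given IFNγ lay below the untreated ones for Sdha and above them for Sdhb. The log2 fold changes with IFNγ were -0.31 ± 0.03 for Sdha (adjusted p = 2.7e-06) and 0.22 ± 0.03 for Sdhb (adjusted p = 3.4e-05), and both calls were kept under all 19 alternatives. Of the membrane anchors, Sdhd rose from 96.6 ± 0.83 to 104 ± 2.4 (0.10 ± 0.03, adjusted p = 0.009, lost without untreated libraries 3 and 4), and Sdhc was at 137 ± 1.4 and 133 ± 4.6, with a value of -0.04 that did not pass the test. The summed signal of the complex was 417 ± 1.84 and 415 ± 1.43.

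Complex III had 3 risers, 3 fallers and 2 genes not called, beside 23.1% and 38.8% of all genes that rose and fell. These were the 8 nuclear subunits taken by the name rule, which leaves out cytochrome c1. Uqcrfs1, the Rieske iron-sulfur protein that takes electrons from ubiquinol, had a signal of 82.9, 75.8, 77.3 and 81.2 in untreated all and of 98.5, 92.5 and 92.5 in treated all (log2 fold change 0.25 ± 0.04, adjusted p = 0.00012). Uqcr11, a small accessory subunit, had 319, 309, 315 and 312, then 260, 269 and 284 (-0.21 ± 0.03, adjusted p = 5.3e-05). The groups were separate in both. Of the 2 core proteins, Uqcrc2 rose by 0.11 (adjusted p = 0.005, lost without untreated libraries 3 and 4), while Uqcrc1 had a log2 fold change of -0.07 (adjusted p = 0.036) that turned to 0.02 with median-ratio scaling and lost its call in 6 of 10 fits that left out 1 library (adjusted p up to 0.094, over all alternatives up to 0.63). Those 6 left out untreated library 2, 3 or 4 or any of the 3 treated libraries. Cytochrome c1, encoded by Cyc1 and outside the name rule, fell from 143 ± 8.5 to 120 ± 5.4 (log2 fold change -0.24), and its partner cytochrome c, encoded by Cycs, rose from 28.6 ± 1.46 to 34.1 ± 1.04 (0.24).

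Complex IV had 4 risers and 2 fallers among 13 tested members, with 7 not called (of all genes, 23.1% rose and 38.8% fell). The largest rises were in the VIIa family. Cox7a2, the widely expressed VIIa isoform, had a signal of 158, 165, 156 and 167 in untreated all, 191, 205 and 197 in treated all and 218, 205 and 217 in PD-L1 high. Its log2 fold change with IFNγ was 0.29 ± 0.03 (adjusted p = 3.1e-05). Cox7a2l is a related gene, sorted here as a factor for supercomplexes, in which respiratory complexes join. Whether its product acts so in cells of this strain was not measured. Its signal was 189, 197, 190 and 195, then 215, 230 and 224, then 229, 230 and 228 (0.21 ± 0.03, adjusted p = 3e-05). No library given IFNγ overlapped the untreated ones in either gene. The muscle isoform Cox7a1 was low, at 2.42 ± 0.48, 4.24 ± 1.2 and 4.8 ± 2.2, and its value of 0.60 with IFNγ did not pass the test (adjusted p = 0.072).

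Cox6c, a small subunit on the membrane side, had a signal of 443, 447, 438 and 449 in untreated all, 501, 495 and 498 in treated all and 450, 453 and 451 in PD-L1 high. It rose by 0.16 ± 0.02 on the log2 scale (adjusted p = 3.9e-06), and the PD-L1 high libraries lay between the untreated and the treated all ones. Cox6a1, the widely expressed VIa isoform, fell by 0.19 (adjusted p = 0.00062) and lost its call with median-ratio scaling. Cox7c had a log2 fold change of -0.08 (adjusted p = 0.046, range 0.011 to 0.91 over the alternatives) that turned to 0.01 with median-ratio scaling and was lost in 7 of 10 fits that left out 1 library. Those left out untreated library 2, 3 or 4, any treated library or PD-L1 high library 2, with an adjusted p of up to 0.12 without treated library 3. Cox4i1, Cox5b, Cox6b1, Cox7b and Cox8a had values between -0.04 and 0.10 and did not pass the test. The other isoform genes Cox4i2, Cox6a2, Cox6b2, Cox7b2 and Ndufa4l2, known from lung, muscle, testis or hypoxic cells, stayed below 0.5 in every library, and Cox8b and Cox8c were listed at 0 in all 10. The same holds for the pseudogene Ndufs5-ps, the complex I gene Ndufa11b reached at most 0.36, and the pseudogene Cox7c-ps1, at 0.807 ± 0.86, 2 ± 1.6 and 0.969 ± 0.47, was not called in any comparison.

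Complex V had 5 risers and 4 fallers among 17 members, and the other 8 were not called. Over all genes tested the shares were 23.1% and 38.8%. Of the 5 small accessory subunits in the membrane, 3 rose and 0 fell (median 0.13), beside those same shares of all genes. The risers were Atp5k by 0.16, Atp5l by 0.14 and Atp5md by 0.13. Atp5l had a signal of 289, 285, 292 and 281 in untreated all and of 318, 309 and 319 in treated all, with no overlap (adjusted p = 0.0011). For Atp5md the groups overlapped, with 533 in treated library 3 and 542 in untreated library 2. The call of Atp5md was lost without any of untreated libraries 1 and 3 and treated libraries 1 and 2 (adjusted p up to 0.1, and from 0.0035 to 0.1 over all alternatives). Of the F1 part, where ATP is made, the catalytic beta subunit gene Atp5b had 1124 ± 20.5 against 978 ± 48.8 (-0.20 ± 0.05, adjusted p = 0.0046, lost with median-ratio scaling), and the gamma shaft gene Atp5c1 rose by 0.12 (adjusted p = 0.003).

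The c ring, which turns as protons pass, is encoded by 3 genes for the same mature protein. Atp5g1 had a signal of 388, 436, 406 and 416 in untreated all, 337, 352 and 341 in treated all and 363, 351 and 329 in PD-L1 high. It fell by 0.26 on the log2 scale (SE 0.04, adjusted p = 0.00024), with no overlap between libraries with and without IFNγ. Atp5g3, at 517 ± 2.8 and 519 ± 3.4, and Atp5g2, at 27.1 ± 5.4 and 33.1 ± 6, did not pass the test (0.01 and 0.28). Atpif1, which encodes the inhibitor of ATP synthase and lies outside the name rule, had 299, 313, 307 and 303, then 246, 257 and 245 (-0.29 ± 0.02, adjusted p = 1.4e-06).

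**Figure D3:**
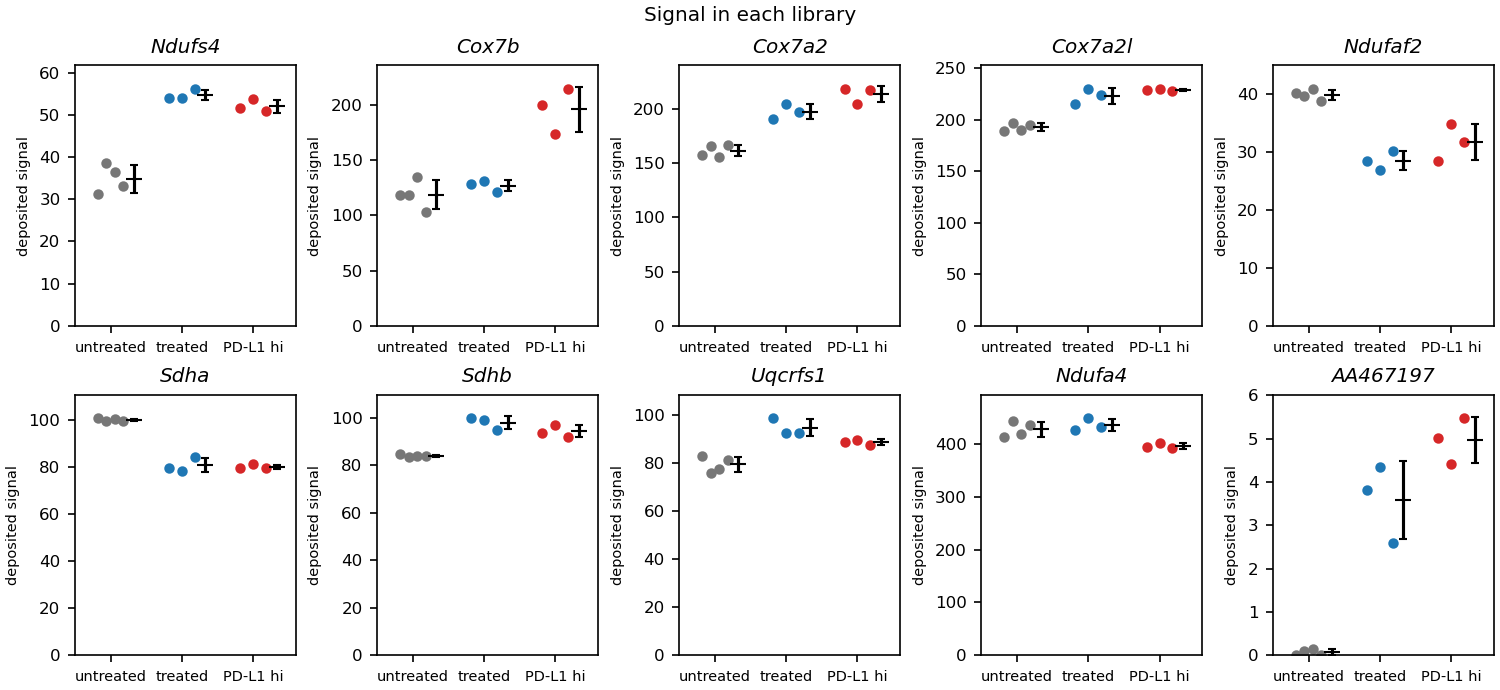
Deposited signal of 9 members and of AA467197 in each library (points; grey for untreated all, blue for treated all, red for PD-L1 high), with the group mean and SD as bars, on axes that start at 0. Ndufs4, Cox7a2 and Sdhb are higher and Ndufaf2 and Sdha lower in all 6 libraries given IFNγ, while Cox7b is higher in the 3 PD-L1 high libraries alone.

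Selection for high PD-L1 among cells given IFNγ went with few differences in these genes. Against treated all, 4 of 88 members were called higher (4.55%, against 11.5% of all genes tested) and 6 lower (6.82%, against 14.1%), with 78 not passing the test. Without untreated libraries 3 and 4, which enter the shared spread, 2 were higher and 4 lower. Over all genes the calls then went from 1320 higher and 1623 lower to 883 and 1009. The median log2 difference was -0.01 over the members and -0.01 over all genes, and its median size was 0.06 against 0.11. Cox7b alone passed the test with a difference of at least 1.25-fold, 1.14% of members against 8.80% of genes. By complex, 2 rose and 0 fell of 37 in complex I, 0 and 0 of its 8 assembly factors and of 4 in complex II, 0 and 2 of 8 in complex III, 2 and 2 of 13 in complex IV and 0 and 2 of 17 in complex V.

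Cox7b encodes subunit VIIb of complex IV, which is needed for assembly of the complex (chromosome X, 106015700 to 106022450). Its signal was 118, 118, 135 and 103 in untreated all, 129, 131 and 121 in treated all and 199, 174 and 214 in PD-L1 high. The 3 PD-L1 high libraries lay above the other 7, while untreated all and treated all overlapped. The log2 difference was 0.62 ± 0.10 against treated all (adjusted p = 0.0013) and 0.72 ± 0.09 against untreated all (adjusted p = 7.5e-05), with ranges over the 19 alternatives of 0.55 to 0.70 and 0.65 to 0.83. Its tested neighbours on the chromosome, Magt1 and Atp7a, had differences of -0.02 and 0.04 from treated all that did not pass the test.

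Others called higher were Ndufc1 and Cox7a2. Ndufc1, an accessory subunit of complex I, had a signal of 115, 122 and 116 in treated all and of 144, 141 and 137 in PD-L1 high, with no overlap (log2 difference 0.26 ± 0.06, adjusted p = 0.0073). Cox7a2 (0.11, adjusted p = 0.045) lost the call in 7 of 10 fits that left out 1 library, with an adjusted p of up to 0.15 without treated library 1. The fits left out untreated library 1, 3 or 4, treated library 1 or 3 or PD-L1 high library 1 or 3, and the adjusted p ranged from 0.021 to 0.15 over all alternatives.

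The 6 members called lower came from complexes III, IV and V. Cox6c, at 501, 495 and 498 in treated all, stood at 450, 453 and 451 in PD-L1 high (log2 difference -0.14 ± 0.02, adjusted p = 0.00013), and Uqcrc2 went from 76, 73.9 and 77.6 to 66.2, 68.6 and 68.3 (-0.16 ± 0.03, adjusted p = 0.0023). Ndufa4, named for complex I but a subunit of complex IV, had 426, 449 and 433, then 394, 403 and 393 (-0.14 ± 0.03, adjusted p = 0.0072). Groups did not overlap for these 3 genes. Atp5a1, the alpha subunit of F1, fell by 0.13 (adjusted p = 0.00078), and the calls of Uqcrc1 (-0.09, adjusted p = 0.029) and Atp5g3 (-0.06, adjusted p = 0.034) were lost with median-ratio scaling and in 3 and 7 of 10 fits that left out 1 library (adjusted p up to 0.094 and 0.11 without PD-L1 high library 1, and up to 0.14 and 0.32 over all alternatives). For Uqcrc1 the 3 fits left out treated library 1 or 3 or PD-L1 high library 1, and for Atp5g3 untreated library 3 or 4, any treated library or PD-L1 high library 1 or 3.

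AA467197, also known as Nmes1, is related to Ndufa4 and lies outside the name rule; its human counterpart is known to take the place of NDUFA4 in complex IV in inflammation. Its signal was 0, 0.106, 0.137 and 0.00557 in untreated all, 3.82, 4.34 and 2.59 in treated all and 5.02, 4.41 and 5.47 in PD-L1 high. All 6 libraries given IFNγ lay above the untreated ones, and the PD-L1 high libraries lay above the treated all ones. On the log2(signal + 1) scale, which understates changes of low genes, the difference was 2.09 ± 0.13 with IFNγ (adjusted p = 1.3e-07) and 0.40 ± 0.14 with PD-L1 selection, which did not pass the test (adjusted p = 0.059). Ndufa4 itself was at 428 ± 14 in untreated all and 436 ± 12 in treated all (0.03, not passing the test).

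PD-L1 high cells set against untreated all share the untreated libraries with the first comparison, so the values are given side by side. Of 88 members, 20 were higher (22.7%, against 19.1% of all genes) and 27 lower (30.7%, against 41.0%), and 7 passed the test at 1.25-fold or more (7.95%, against 29.4%). Those 7 were Ndufs4 (0.57, against 0.64 in treated all), Cox7b (0.72, against 0.10), Cox7a2 (0.40, against 0.29), Cox7a1 (0.69, against 0.60), Ndufaf2 (-0.32, against -0.47), Ndufaf7 (-0.39, against -0.35) and Ndufb6 (-0.34, against -0.18). The call of Cox7a1 was lost in 8 of 10 fits that left out 1 library, all but those without treated library 3 or PD-L1 high library 3 (adjusted p up to 0.17, which is also its highest over all alternatives), and that of Ndufaf7 without PD-L1 high library 1 (adjusted p = 0.06, and 0.087 at most over all alternatives). Median-ratio scaling gave 40 higher and 7 lower, beside 3243 and 3116 of all 11487 genes tested. Upper-quartile scaling gave 35 and 13, beside 2722 and 3823.

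**Figure D4:**
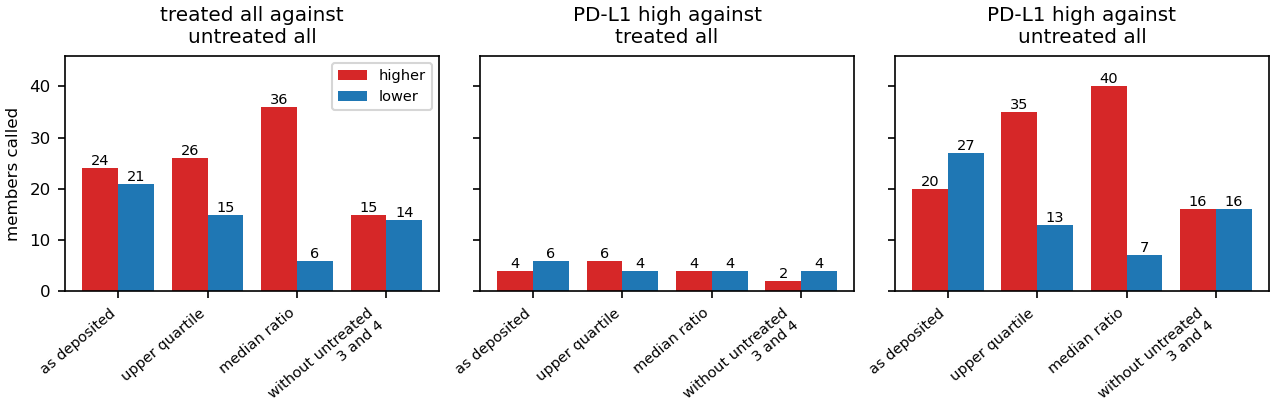
Number of the 88 tested members called higher or lower in each comparison on the deposited scale, with upper-quartile scaling, with median-ratio scaling and without untreated libraries 3 and 4. With median-ratio scaling the split against untreated all moves from 24 higher and 21 lower to 36 and 6 in treated all, and from 20 and 27 to 40 and 7 in PD-L1 high, while against treated all the counts are 6 or fewer each way in every set of bars. Over all 11487 genes tested, median-ratio scaling moves the split from 2648 higher and 4458 lower to 3592 and 3384 in treated all. In PD-L1 high it moves from 2189 and 4711 to 3243 and 3116.

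Some genes around the respiratory chain had larger log2 fold changes with IFNγ than any called subunit. The counts in the lists that follow stand beside 23.1% of all genes tested called higher and 38.8% lower with IFNγ, and 11.5% and 14.1% with PD-L1 selection. Of 24 tested complex IV assembly factors, 6 rose and 4 fell: Coa7 from 10.4 ± 0.627 to 18.9 ± 4.19 (log2 fold change 0.78) and Cox10, which makes heme O, from 9.42 ± 0.86 to 13.7 ± 0.45 (0.50), while Cmc2 went from 17.2 ± 0.21 to 10.4 ± 1.04 (-0.68) and Cox20, a chaperone of the mitochondrially encoded subunit COX2, from 64.7 ± 2.64 to 41.8 ± 1.59 (-0.62). Of 9 further complex I assembly factors 1 rose (Foxred1, 0.31) and 3 fell (Timmdc1, -0.42, leading), and of 10 for complexes II and III 1 rose and 3 fell, with Uqcc2 at -0.47 and Sdhaf4 at -0.33. Of 3 for complex V, Atpaf2 fell by 0.34. With PD-L1 selection Cmc2 (0.46), Sdhaf4 (0.40), Sdhaf2 (0.21) and Timmdc1 (0.19) were higher and Sdhaf1 (-0.44) was lower. The call of Timmdc1 was at the edge of the threshold (limma adjusted p = 0.05 after rounding).

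Of 15 tested genes of mitochondrial biogenesis and mitochondrial DNA expression, 2 rose and 9 fell with IFNγ (median log2 fold change -0.28), where 23.1% of all genes tested rose and 38.8% fell (median -0.08). Twnk, the mitochondrial DNA helicase, had a signal of 16.2 ± 0.721 in untreated all, 9.22 ± 0.692 in treated all and 10.5 ± 0.0455 in PD-L1 high (-0.75 with IFNγ), and Polrmt, the mitochondrial RNA polymerase, 23.8 ± 1.86, 15.8 ± 3.52 and 17.6 ± 2.47 (-0.58). Nrf1, whose motif was searched above, fell by 0.17, while the coactivator gene Pprc1 rose by 0.37 and Esrra by 0.17. Of 78 mitochondrial ribosomal protein genes 22 rose and 17 fell, from Mrpl32 (0.72) to Mrpl34 (-0.79), against the same shares of all genes. With PD-L1 selection 0 rose and 10 fell, Mrpl23 by 0.56, against 11.5% and 14.1% of all genes, so the fallers were near the share over all genes. None of the 13 subunits encoded in mitochondrial DNA was found under its name, and they are not analysed here.

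In the TCA cycle, which feeds the chain, 2 of 14 genes rose and 2 fell with IFNγ (23.1% and 38.8% of all genes), and 0 rose and 5 fell with PD-L1 selection (11.5% and 14.1% of all genes), among them Idh3a (-0.16) and Mdh2 (-0.15). Of 12 genes of pyruvate dehydrogenase and pyruvate import, 5 rose and 3 fell. The largest rises were in Pdp1 (0.42) and Pdk3 (0.39), and the pyruvate carrier Mpc1 was at 0.34. The largest falls were in the kinase Pdk2 (-0.50) and in Pdha1 (-0.14). With PD-L1 selection Pdk2 was higher by 0.44 and Mpc1 lower by 0.19. Of 21 glycolysis genes, 12 rose and 5 fell with IFNγ, and 4 rose and 4 fell with PD-L1 selection, beside those same shares. Hk2, which traps glucose in the cell, had a signal of 31.8 ± 1.67 in untreated all, 124 ± 0.514 in treated all and 78.9 ± 1.96 in PD-L1 high, that is 1.93 with IFNγ and then -0.64 on the log2 scale.

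Of 6 genes for exchange of ATP, ADP and phosphate, 2 rose and 3 fell with IFNγ (23.1% and 38.8% of all genes), and 0 rose and 3 fell with PD-L1 selection (11.5% and 14.1%). Slc25a5, an ATP/ADP carrier, went from 209 ± 2.92 to 282 ± 4.62 and was at 252 ± 1.04 in PD-L1 high (0.43, then -0.16), and Vdac2, a channel of the outer membrane, went from 134 ± 5.25 to 197 ± 5.12 (0.56). The largest falls with IFNγ were in Vdac1 (-0.16) and Slc25a3 (-0.12), and Slc25a3 was lower again with PD-L1 selection (-0.11). Of 6 mitochondrial antioxidant genes, 2 rose and 2 fell with IFNγ, beside the same shares, and Sod2, the manganese superoxide dismutase, went from 77.2 ± 4.76 to 151 ± 5.02 (0.96). The other riser was Prdx5 (0.34), and the fallers were Ucp2 (-0.47) and Txn2 (-0.30). Nos2, whose product nitric oxide is known to inhibit complex IV, was at 1.72 ± 0.0486, 16.3 ± 0.461 and 25.3 ± 0.305 (2.67, then 0.60). Acod1, whose product itaconate is known to inhibit complex II, stayed below the test's filter, at 0.0125 ± 0.025, 0.663 ± 0.17 and 1.04 ± 0.11.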

How the data were processed

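RNA-seq libraries were prepared with a TruSeq kit from total RNA, per the labels. The submitters' processing notes name mm10 and CASAVA 1.7; aligner, counter, annotation and unit: not given in the sources used here. A table of normalized signal, made by the authors, was deposited for all libraries, so no count test was possible and read depth is unknown. Of 25507 rows, 695 had no value, and rows sharing a name (52 names) were added up. Genes averaging 1 or more in signal (11487) were fitted as log2(signal + 1) over all 10 libraries with limma 3.58.1 in R 4.3.3, with an intensity trend, robust variances and 1 mean per group. A gene was called at a Benjamini-Hochberg adjusted p under 0.05 over all genes tested. The procedure was tested on simulated data with independent noise in each library. That test therefore cannot cover the closeness among the untreated libraries. Counts over complexes and lists are descriptions. Members, 15 pathway lists and 5 marker lists were chosen with earlier results of these data known. Named genes were the complex II subunits, isoform genes and the ATP synthase inhibitor, then in each comparison up to 3 called non-overlapping members per complex and direction by size, and up to 2 called genes per list and direction; further members and list genes named beside them were chosen after their values were seen. Same-numbered libraries correlated at -0.181 to 0.104 in their deviations from the group means, so replicate numbers were not taken as pairs. Sequences, coordinates and neighbouring genes are from RefSeq (GRCm38.p6); 97 of 98 names matched. Alternatives were other scalings, filters, pseudocounts, variance models and library sets. Figures used matplotlib 3.10.9 in Python 3.11.15. Values of 1 member and of 1 motif are not reported here; the member stays in the counts.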

Additional observations from a re-analysis of the deposited data

Results flagged for a closer look

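In the untreated group, the one group with 4 libraries, 2 of 48 genes checked had 1 library far from the rest. Cox4i2, the lung and hypoxia isoform of complex IV subunit IV, had a signal of 0.13 in untreated library 1 and 0 in the other 3. Cox6a2, the muscle isoform of subunit VIa, had 0.11 in untreated library 4 and 0 in the other 3. Both were below the filter and entered no test, and chance flags about 1 in 20 groups.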

How the results depend on the processing

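Median-ratio scaling, with factors of 1.03 to 1.06 in untreated all and 0.965 to 0.995 in the others, moved the splits against untreated all most. In treated all against untreated all it gave 6 falls in place of 21, and leaving out untreated libraries 3 and 4 gave 15 rises in place of 24. Over all genes tested these were 3384 falls in place of 4458 and 2061 rises in place of 2648. In PD-L1 high against untreated all, rises numbered 40 with median-ratio and 35 with upper-quartile scaling in place of 20, and falls 7, 13 and, without untreated libraries 3 and 4, 16 in place of 27. Over all genes tested the rises were 3243 and 2722 in place of 2189. The falls there were 3116, 3823 and 3399 in place of 4711. In PD-L1 high against treated all, rises fell from 4 to 2 with no trend and plain variances, with a replicate block, with only the 2 groups compared and without untreated libraries 3 and 4. Over all genes tested they went from 1320 to 1281, 1089, 944 and 883 in the same order. Leaving out 1 library gave 2 to 5 rises and 5 to 9 falls among members in that comparison, with 2 rises without untreated library 3 or 4 and 9 falls without PD-L1 high library 2. Over all genes tested it gave 1074 to 1291 rises and 1248 to 1610 falls. The replicate block gave 23 rises and 18 falls in treated all against untreated all and 18 and 24 in PD-L1 high against untreated all, and not every library correlated best with its own number. Over all genes tested the block gave 2487 and 4031, then 2024 and 4171.

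Signs reversed with median-ratio scaling for Atp5d (0.0049), Cox7c (0.00585) and Uqcrc1 (0.0186) in treated all against untreated all, and for Atp5a1 (0.00827) and Atp5g3 (0.0491) in PD-L1 high against untreated all, where upper-quartile scaling also turned Atp5g3 (0.000508). Over 138 gene and comparison pairs under 19 settings, 2427 values kept their direction and side of the threshold, 141 lost and 45 gained a call, and 6 reversed; the cause was not tested. With depth unknown, small differences between genes of low signal cannot be judged.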

Other observations

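The tested genes next to Ndufs4 on chromosome 13 were also called higher with IFNγ, as were 23.1% of all genes tested. Fst, which encodes the activin antagonist follistatin (114452262 to 114458989, GRCm38.p6), stood at a signal of 18.1 ± 0.815 without IFNγ (SD, n = 4), of 62.5 ± 1.23 in treated all and of 72.6 ± 0.443 in PD-L1 high (SD, n = 3 each). Its log2 fold change with IFNγ was 1.73 ± 0.04 (limma adjusted p = 1.1e-11), and PD-L1 high lay 0.21 above treated all (adjusted p = 0.003), while the difference for Ndufs4 was -0.07 and did not pass the test. Arl15, on the other side (113794506 to 114157462), was low, at 2.73 ± 0.161, 3.26 ± 0.299 and 2.73 ± 0.213. Its log2 fold change with IFNγ was 0.19 ± 0.07 (adjusted p = 0.047), a call close to the threshold whose stability is not given here. In PD-L1 high it differed from untreated all by -0.0004, which did not pass the test, where Ndufs4 was higher by 0.57. These genes were looked up after the values of Ndufs4 were seen, and no relation between the genes was tested.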
